A study of Mus musculus with 108 samples.

Results

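Acinar cells of the mouse pancreas with a low level of Stmn1 transcript were compared with acinar cells in which Stmn1 was listed at 0. The 2 groups held 83 of the cells measured, and 25 cells entered neither. In 27 cells Stmn1 stood at 1 TPM or more and under 10 TPM, and these are called low-Stmn1 cells. In 56 cells the value was exactly 0, and these are called Stmn1-zero cells. Stmn1 itself chose the 83 cells, so its values are given as a description. TPM is a read share corrected for transcript length. The 25 cells left out were 23 with Stmn1 above 0 and under 1 TPM and 2 at 107.55 and 108.72 TPM.

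Stathmin, the product of Stmn1, binds tubulin dimers and promotes the disassembly of microtubules, and phosphorylation during mitosis switches it off. Its transcript is abundant in proliferating cells, where the mitotic spindle is built. Acinar cells make and secrete digestive enzymes and divide rarely in the adult gland. The comparison asks whether cells with a trace of a proliferation transcript differ from the rest in their other genes.

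All cells came from the pancreas of untreated male C57BL/6 mice aged 12 weeks, were freed with collagenase and Accutase, and were amplified one by one with a modified SMART-seq2 protocol. The labels named no animal, day or plate. All cells therefore counted as 1 sample, and without replicates no test was made. SDs and ranges describe the spread between cells, and confidence intervals on shares of cells are exact 95% binomial intervals for counting error only. The read depth of each cell is unknown, because TPM do not keep it. Cells fall into 3 sets that share no cell, namely full-total cells numbered to 48, full-total cells numbered from 49, and 21 short-total cells whose values summed to less than 1000000 TPM. The bound at 48 was chosen in earlier work on these data, after differences in Reg genes had been seen.

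Stmn1 lies at chr4:134468320-134473843 on the plus strand of GRCm38. In the low-Stmn1 cells its level ran from 1.01 to 4.65 TPM with a median of 1.90 TPM. The 3 values just inside the lower bound were 1.01, 1.02 and 1.05 TPM, and the 3 just outside were 0.93, 0.95 and 0.97 TPM. The bound therefore passed through a continuous range of values, whereas no cell lay between 4.65 and 107.55 TPM. Among 2305 genes with a mean within 1.5 times that of Stmn1, taken over all cells under 10 TPM, the median gene was at 0 in 21.7% of cells and the 90th percentile was 49.1%. Stmn1 was at 0 in 52.8% of these cells. It reached 1 TPM in 25.5% of them, against a median of 24.5% for the genes of like mean.

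**Figure D1:**
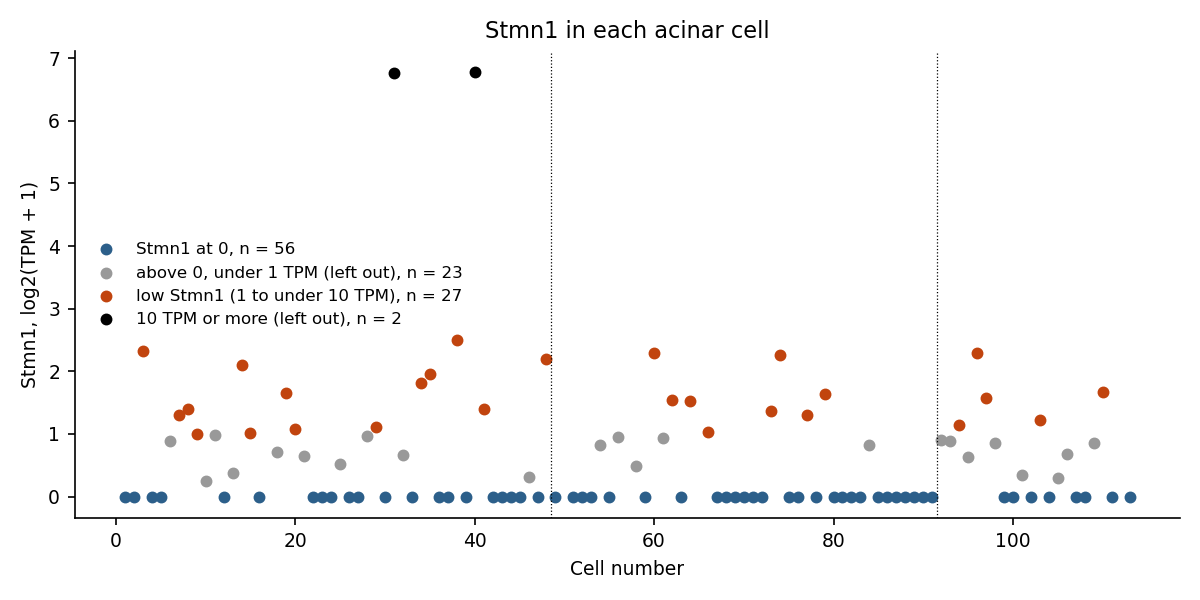
Stmn1 in each cell as log2(TPM + 1), plotted against cell number and coloured by group, with dotted lines where the sets of cells meet. The 27 low-Stmn1 cells occur along the whole range of cell numbers, and the 2 cells above 100 TPM stand far from all others.

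Low-Stmn1 cells occurred in every set. They made up 14 of 47 full-total cells numbered to 48 (29.8%, 17.3% to 44.9%), 8 of 40 numbered from 49 (20.0%, 9.05% to 35.6%) and 5 of 21 short-total cells (23.8%, 8.22% to 47.2%). The intervals overlapped. The Stmn1-zero cells numbered 21, 27 and 8 in the same sets, so the zero group held a larger part of its cells in the set numbered from 49.

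The numbers of genes detected, meaning genes at 1 TPM or more, overlapped widely. Low-Stmn1 cells had a median of 4224 genes (2983 to 5201) and Stmn1-zero cells a median of 4087 genes (2624 to 5032). The order differed between sets. Medians were 4367.5 genes in low-Stmn1 and 4061 in Stmn1-zero cells numbered to 48, 4151.5 and 4174 from 49, and 4029 and 3944.5 in short-total cells. Digestive enzyme and granule transcripts took a median of 87.8% of the TPM in low-Stmn1 cells and 88.02% in Stmn1-zero cells.

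Every cell of both groups held all 10 acinar markers. Prss2, an anionic trypsinogen, averaged 102257 ± 11317 TPM (SD over cells) in low-Stmn1 cells and 103606 ± 11644 TPM in Stmn1-zero cells. Of 13 duct markers, the median cell of each group held 4 (3 to 8 in low-Stmn1 cells, 2 to 7 in Stmn1-zero cells). The summed level of the duct markers ran from 125 to 751 TPM in low-Stmn1 cells and from 145 to 420 TPM in Stmn1-zero cells. Spp1, osteopontin, a duct marker noted after its values were seen, was detected in 5 of 27 low-Stmn1 cells (18.5%, 6.30% to 38.1%) and 3 of 56 Stmn1-zero cells (5.36%, 1.12% to 14.9%), with highest values of 344 TPM in low-Stmn1 cell 15 and 164 TPM in a Stmn1-zero cell. Of 11 stellate and fibroblast markers, low-Stmn1 cell 96 held 4 and the Stmn1-zero cells held none. Of 14 endocrine markers no cell held more than 2. None of 13 lymphocyte markers reached 1 TPM in any cell of either group, and no cell held more than 2 of 13 macrophage or 1 of 11 endothelial markers.

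Across all genes the groups were close. The measure was the difference in mean log2(TPM + 1), low-Stmn1 minus Stmn1-zero cells, over the 7120 genes detected in at least 10% of the 83 cells, with Stmn1 left out. The median difference was 0.01, and 6406 genes (89.97%) lay within 0.25 of 0. At a difference of 0.5 or more, 34 genes were higher in low-Stmn1 cells (0.478% of the genes compared) and 20 were lower (0.281%). With such small shares, a count of 0 past 0.5 in any of the short gene lists below says little about that list. Only 5 genes passed a difference of 1, namely the predicted genes Gm44364, Gm6851 and Rps6-ps4 and the secreted-protein genes Reg2 and Reg3b. Of the 34 genes that were higher, 20 were protein-coding (58.8%), 6 were pseudogenes (17.6%) and 8 were of other kinds. Among the other kinds, the predicted microRNA genes Gm47311, Gm47313 and Gm44341 had identical values. They are not separate measurements, although each is counted in the 34. Of the 20 that were lower, 13 were protein-coding (65.0%) and 4 were pseudogenes. Among all genes compared, 94.1% were protein-coding and 2.53% were pseudogenes. Values of pseudogenes are uncertain, because reads are shared with the parent gene.

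The gene-by-gene differences of 1 set of cells were hardly correlated with those of another. Across the 7120 genes, which are not independent replicates, the differences in cells numbered to 48 and from 49 had a Pearson correlation of 0.041 and a Spearman correlation of 0.028. For cells numbered to 48 and short-total cells the Pearson value was 0.016, and for cells from 49 and short-total cells it was 0.0054. In cells numbered to 48, 182 genes were higher by 0.5 (2.56%), and in cells from 49 there were 193 (2.71%). Both sets shared 18 of them, or 9.89% of the first and 9.33% of the second list, so a gene past the bound in 1 set was past it in the other more often than the average gene but in most cases was not. The corresponding lists of lower genes held 83 (1.17%) and 151 genes (2.12%) and shared 10, or 12.0% and 6.62%. With its 5 low-Stmn1 and 8 Stmn1-zero cells, the short-total set placed 647 genes (9.09%) above and 396 (5.56%) below the same bounds. It shared 24 higher genes with the cells to 48 (13.2% of their list, 3.71% of its own) and 35 with the cells from 49 (18.1% and 5.41%). Shared lower genes were 16 (19.3% and 4.04%) and 23 (15.2% and 5.81%). Whether these overlaps exceed what the spread of the same genes gives was not tested.

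**Figure D2:**
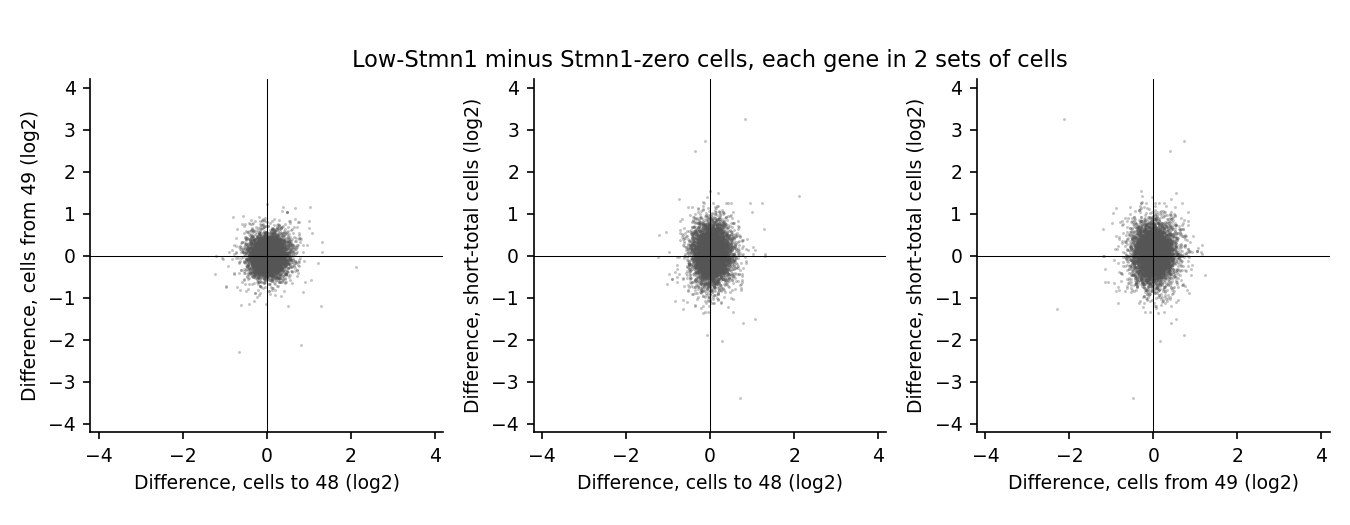
Difference of each of the 7120 genes in mean log2(TPM + 1), low-Stmn1 minus Stmn1-zero cells, in 1 set of cells against another set that shares no cell with it. Each point is a gene, and the clouds show little slope (Pearson 0.041, 0.016 and 0.0054 from left to right).

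Past 0.5 in the same direction in all 3 sets were 5 of the 7120 genes compared, 2 higher and 3 lower. Pigp, a subunit of the enzyme that starts the synthesis of glycosylphosphatidylinositol anchors (chr16:94358763-94371842), was detected in 27 of 27 low-Stmn1 and 43 of 56 Stmn1-zero cells, with medians of 4.06 TPM (1.01 to 9.57) and 2.58 TPM (0.00 to 8.59). Its differences were 0.63, 0.54 and 0.55 in the sets to 48, from 49 and short-total. Slirp, an RNA-binding protein that stabilises mitochondrial messenger RNA (chr12:87443896-87452206), went the other way. It was detected in 20 of 27 low-Stmn1 cells at a median of 2.96 TPM (0 to 12.71) and in 51 of 56 Stmn1-zero cells at a median of 5.74 TPM (0.12 to 19.70). Its differences were -0.52, -0.68 and -0.83. The other 3 were the processed pseudogene Gm6851, which was higher, and Rps6-ps4 and Gm10717, which were lower. In each of these genes the ranges of the groups overlapped. Pigp, Gm44364, Gm6851, Rps6-ps4 and Gm10717 were named after their values were seen.

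Genes of DNA replication and S phase were detected slightly more often in low-Stmn1 cells. Of the 39 genes of this list, the median low-Stmn1 cell held 8 at 1 TPM or more (2 to 22), the median Stmn1-zero cell 6 (2 to 14) and the median cell between 0 and 1 TPM 7 (3 to 18). Medians were 8.5 and 6 in cells numbered to 48, 9.5 and 7 in cells from 49, and 6 and 5.5 in short-total cells, low-Stmn1 before Stmn1-zero. At least 10 genes of the list were held by 9 of 27 low-Stmn1 cells (33.3%, 16.5% to 53.96%), 7 of 56 Stmn1-zero cells (12.5%, 5.18% to 24.1%) and 2 of 23 cells between 0 and 1 TPM (8.70%, 1.07% to 28.04%). The bound of 10 genes was not set in advance. In short-total cells the highest count was 8 in low-Stmn1 and 10 in Stmn1-zero cells, so there only the zero group reached it. The ranges and the intervals overlapped, and most cells of either group held between 4 and 11 such genes. The low-Stmn1 cells also had more genes detected in all in the sets to 48 and short-total but not in the set from 49.

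**Figure D3:**
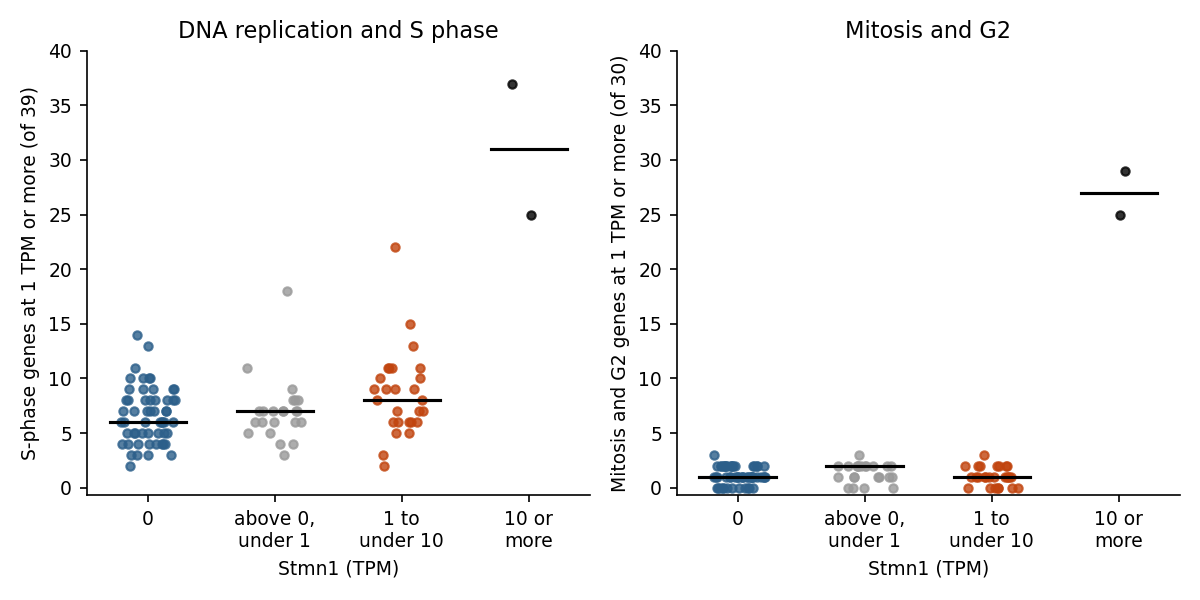
Number of S-phase genes (of 39, left) and of mitosis and G2 genes (of 30, right) at 1 TPM or more in each cell, by Stmn1 level, with the median of each group as a line. Points are spread sideways for visibility. The median is 6 S-phase genes in the zero and 8 in the low group with wide overlap, while the mitosis counts of both stay between 0 and 3.

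On the level scale the S-phase list moved little. Of its 39 members 19 passed the detection filter, none of them lay past 0.5 either way, and their median difference was 0.10, beside 0.01 for all genes. The median was 0.03 in cells numbered to 48, where that of all genes was also 0.03, and 0.30 and 0.16 in the other sets. With the trend of each gene on the number of genes detected removed, it was 0.09, beside -0.0061 for all genes. In the share of cells that detected them, 26 of the 39 genes were higher in low-Stmn1 cells, 8 were higher in Stmn1-zero cells and 5 were equal, of which 4 were detected in no cell of either group. Among the 19 that passed the filter the split was 14 and 4. Over all 7120 genes compared, 47.5% were detected in a higher share of low-Stmn1 cells and 40.6% in a higher share of Stmn1-zero cells.

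Genes that act on the licensing of replication origins were seen in few cells. Gmnn encodes geminin, which binds Cdt1 and blocks the licensing of origins a further time. It was detected in 8 of 27 low-Stmn1 cells (0 to 9.85 TPM, median 0) and in 4 of 56 Stmn1-zero cells (0 to 4.86 TPM, median 0), and the difference was 0.45. The differences by set were 0.86, 0.25 and -0.18, so Gmnn was not higher in the short-total cells. Mcm6 and Mcm3, subunits of the replicative helicase, were detected in 5 and 4 low-Stmn1 cells and in 2 and 1 Stmn1-zero cells. Summed over Mcm2 to Mcm7, a subgroup chosen after the values were seen, the level was 0.74 TPM in the median low-Stmn1 cell (0 to 11.12) and 0.705 TPM in the median Stmn1-zero cell (0 to 14.83). At least 2 of the 6 subunits were detected in 6 low-Stmn1 cells (22.2%, 8.62% to 42.3%) and in 3 Stmn1-zero cells (5.36%, 1.12% to 14.9%). By set these were 3 of 14 and 2 of 21 cells to 48, 3 of 8 and 0 of 27 from 49, and 0 of 5 and 1 of 8 short-total cells, where the order was reversed. The medians over all cells were nearly alike, and the 2 groups differed in a few cells of high value.

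Genes that work at the fork or supply nucleotides differed by varying amounts. Pcna, the sliding clamp of DNA polymerase, had a median of 2.29 TPM in low-Stmn1 cells (0 to 5.03) and 1.74 TPM in Stmn1-zero cells (0 to 8.33), and its difference was 0.19. Rfc4, a subunit of the complex that loads the clamp, was detected in 11 of 27 and 13 of 56 cells with means of 1.21 ± 1.26 and 0.55 ± 0.90 TPM. Its difference of 0.48 was the largest of the list, with 0.52, 0.82 and 0.16 in the 3 sets. Rrm2, the ribonucleotide reductase subunit that peaks in S phase, was detected in 6 of 27 and 9 of 56 cells and differed by 0.14. Dut, which clears dUTP from the nucleotide pool, was detected in 13 of 27 and 13 of 56 cells. H2afz, a histone variant that most cells express, had medians of 39.98 and 36.73 TPM and differed by 0.07. Dut, Mcm3 and Mcm6 were outside the naming rules. The genes described singly here and in the paragraph above had an equal or higher share of cells detected in the low-Stmn1 group. They do not stand for the whole list, of which 8 of 39 genes went the other way.

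Low-Stmn1 cell 74 held more S-phase genes than any other cell of the 83, with 22 of the 39. Its Stmn1 was 3.78 TPM, and 4059 genes were detected in it in all, fewer than in the median low-Stmn1 cell. Pcna stood at 5.03 TPM, Mcm6 at 4.37 TPM, Mcm3 at 1.99 TPM, Prim1, a primase subunit, at 1.51 TPM, and the origin-licensing genes Cdc6 and Cdt1 at 1.22 and 1.2 TPM. In this cell 6 members of the list (Cdt1, Cdc6, Mcm4, Prim1, Mcm6 and Mcm3) were above every Stmn1-zero cell. For Mcm4 the values were 0.60 TPM against a highest of 0.55 TPM, both under the detection level. Such a count was not particular to cell 74. Stmn1-zero cell 12 was above every other Stmn1-zero cell in 7 members of the list, and Stmn1-zero cell 1 in 5. The members of cell 12 included Pole at 0.25 TPM and Cdc6 at 0.41 TPM, also under the detection level. The mitosis list counted 2 genes in cell 74, Cks1b at 12.35 TPM and Mad2l1 at 2.35 TPM. Without cell 74 the median difference of the S-phase list was 0.08.

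Other cells with many S-phase genes were not confined to the low-Stmn1 group. Low-Stmn1 cell 79 held 15 and cell 38, with the highest Stmn1 of the group at 4.65 TPM, held 13. Stmn1-zero cell 12 held 14, and Stmn1-zero cell 1 held 13, with Mcm2 at 6.51 TPM and Mcm7 at 6.60 TPM, above every other Stmn1-zero cell. Among the 27 low-Stmn1 cells the Stmn1 level and the number of S-phase genes had a Pearson correlation of 0.34 and a Spearman correlation of 0.21. Without cell 74 these were 0.21 and 0.14 over 26 cells. Stmn1 level and number of genes detected had a Pearson correlation of -0.01. These values describe cells of 1 sample.

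Most genes of mitosis and G2 were not detected in either group. Of 30 genes, 22 reached 1 TPM in no cell of either group, and the median cell of each group held 1 (0 to 3). The genes most often seen were Cks1b and Cks2, small partners of cyclin-dependent kinases, detected in 17 and 8 low-Stmn1 cells and in 42 and 16 Stmn1-zero cells. They were the only members to pass the detection filter, with differences of -0.18 and 0.01. Mki67, the proliferation antigen Ki-67, did not exceed 0.05 TPM in low-Stmn1 cells or 0.06 TPM in Stmn1-zero cells. Top2a, topoisomerase 2 alpha, reached 1 TPM in 0 low-Stmn1 cells and 1 Stmn1-zero cell. Single high values occurred in both groups. In the zero group Ube2c, which targets mitotic cyclins for destruction, stood at 16.43 TPM in cell 70. Cdk1, the mitotic kinase, stood at 2.97 TPM in cell 76. These cells held 1 and 2 genes of the list. The low-Stmn1 group had the higher maximum for Cks1b (20.75 TPM in cell 79, against 9.21 TPM), Mad2l1 (2.35 TPM in cell 74, against 1.33 TPM) and Cenpa (1.13 TPM in cell 19, against 0.32 TPM). The zero group had it for Ube2c, Cdk1, Top2a, Tacc3 and Cks2. No cell of either group held more than 3 of the 30 genes, whereas cell 74 held many S-phase genes, so the groups are named here by their Stmn1 values alone.

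Cyclins and inhibitors that govern entry into the cycle were alike on average. Of 26 genes 11 passed the filter, none lay past 0.5, and the median difference was 0.05. Ccnd2, a D-type cyclin, was detected in every cell of both groups with means of 5.79 and 5.29 TPM. Ccnd1 was detected in 3 low-Stmn1 cells and 1 Stmn1-zero cell, and Cdkn1a, the p21 inhibitor, in 22 and 41 cells. E2f4 and Trp53 had the largest differences of the list, 0.28 and 0.21.

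The other stathmin genes, Stmn2, Stmn3 and Stmn4, were listed at 0 in every cell. Of 30 tubulins and microtubule regulators 21 passed the filter, none lay past 0.5, and their median difference was 0.03. Tuba4a, the most abundant alpha-tubulin here, had medians of 11.6 TPM in low-Stmn1 cells (6.32 to 25.99) and 15.3 TPM in Stmn1-zero cells (3.62 to 38.95). Tuba1b and Tubb5, the main tubulin genes of dividing cells, had medians of 2.84 and 1.84 TPM in low-Stmn1 cells and 2.09 and 1.62 TPM in Stmn1-zero cells, and each differed by 0.16. Map4, which stabilises microtubules, had the largest difference of the list at 0.45, which was 0.37, 0.04 and 1.26 by set.

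Progenitor-associated genes did not separate the groups. Of 29 genes 15 passed the filter, none lay past 0.5, and the median difference was -0.01. Bmi1, a Polycomb protein of self-renewing cells, had the largest difference, -0.35, and was detected in 2 of 27 low-Stmn1 cells and 15 of 56 Stmn1-zero cells. Sox9 was detected in 8 and 12 cells, Hes1, a Notch target, in 7 and 17, and Prom1 in 26 and 54. Lgr5 and Dclk1 reached 1 TPM in no cell of either group.

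The acinar programme was held at like levels. The 13 acinar transcription factors that passed the filter, of 15, had a median difference of -0.04, with 5 above 0, 8 below 0 and none past 0.5. Ptf1a, which drives the digestive enzyme genes, had the largest difference of the list. Its median was 9.70 TPM in low-Stmn1 cells (3.07 to 23.75) and 12.2 TPM in Stmn1-zero cells (1.78 to 43.20), a difference of -0.42, with -0.38 and -0.44 in the full-total sets and 0.04 in short-total cells. Bhlha15 and Rbpjl differed by 0.05 and -0.05. The 38 digestive enzyme and granule genes that passed, of 40, had a median difference of 0.02 with none past 0.5.

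All 31 endoplasmic reticulum chaperone and unfolded protein response genes passed the filter. Their median difference was -0.11, with 25 members below 0, 6 above 0 and none past 0.5. Pdia4, a disulfide isomerase, had medians of 7.52 and 12.1 TPM, and Creld2, a stress-induced chaperone, 31.5 and 41.7 TPM. Their differences were -0.48 and -0.39. Hspa5, the main chaperone of the compartment, had medians of 92.9 TPM (39.5 to 256) in low-Stmn1 cells and 107.6 TPM (43.2 to 313) in Stmn1-zero cells. The list median was -0.03 in cells numbered to 48, -0.22 in cells from 49 and 0.09 in short-total cells, with 14, 3 and 20 of 31 members above 0. Of 47 ribosomal protein and 36 respiratory chain genes none lay past 0.5, and the list medians were 0.09 and -0.02. The ribosomal median was 0.15 in cells to 48, 0.09 from 49 and -0.12 in short-total cells, with 45, 40 and 12 of 47 members above 0.

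**Figure D4:**
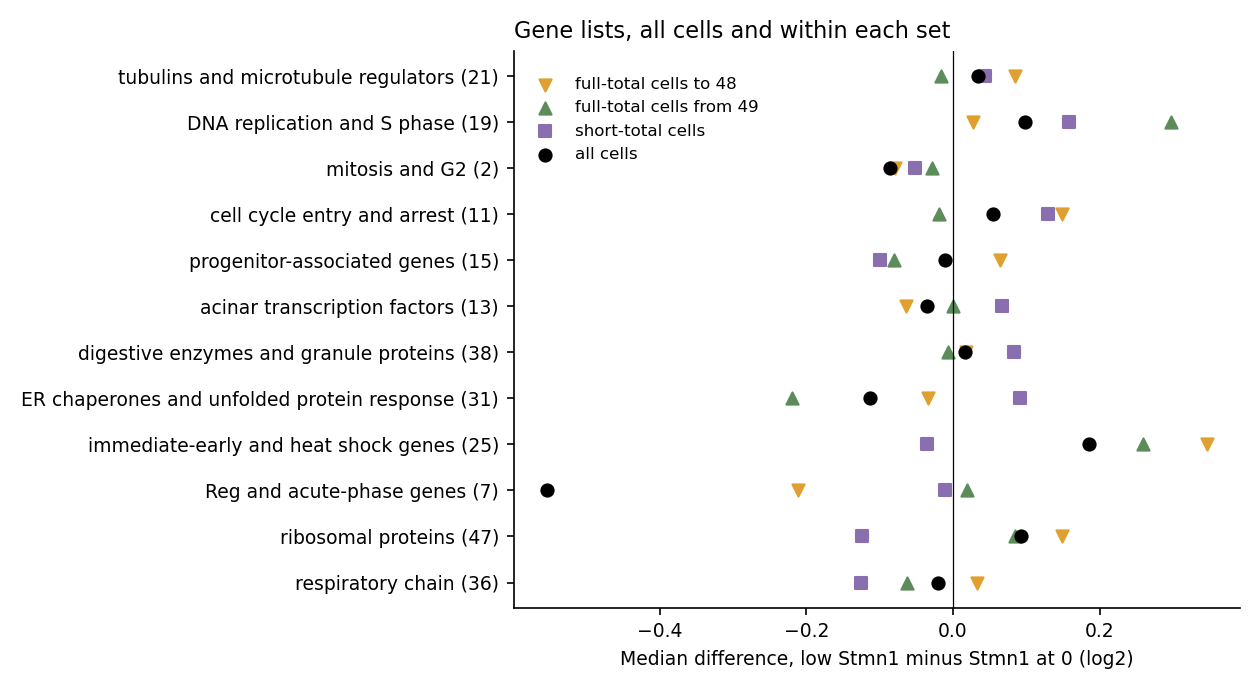
Median over the members of each gene list of the difference in mean log2(TPM + 1), low-Stmn1 minus Stmn1-zero cells, for all cells and for each set, with the number of members that passed the detection filter in brackets. The S-phase list is above 0 in every set, but in full-total cells to 48 it is at 0.03, as is the median of all genes. The Reg list is at -0.55 over all cells but at 0.02 in full-total cells from 49.

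Reg and acute-phase genes held the lowest differences over all cells. Of 11 genes 7 passed the filter, 4 were lower by 0.5, against 0.281% of all genes, and the list median was -0.55. Reg3b, a secreted lectin of the stressed pancreas, had a median of 13.6 TPM in low-Stmn1 cells (0 to 1155) and 93.5 TPM in Stmn1-zero cells (0 to 913), a difference of -1.45. Reg2 had medians of 33.03 and 127 TPM and a difference of -1.27. Reg3a and Reg3g differed by -0.97 and -0.55. These genes also differed between the sets of cells. The median of Reg2 in Stmn1-zero cells was 1234 TPM in the set from 49, 29.3 TPM in the set to 48 and 22.6 TPM in short-total cells, and 27 of 56 Stmn1-zero cells but 8 of 27 low-Stmn1 cells belonged to the set from 49. Within sets, the difference of Reg2 was 0.20, -0.94 and -0.11, and that of Reg3b -1.24, -0.43 and -0.03. The list median was -0.21 in cells numbered to 48, 0.02 from 49 and -0.01 in short-total cells, each nearer 0 than over all cells.

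Metallothioneins, which bind zinc and copper, were among the genes that were higher in low-Stmn1 cells. Mt2 had a median of 107.9 TPM in low-Stmn1 cells (0.79 to 389) and 57.3 TPM in Stmn1-zero cells (0 to 286), a difference of 0.89, with 1.01, 0.66 and 0.20 by set. Mt1 had medians of 419 and 334 TPM and a difference of 0.59, with 0.66, 0.35 and 0.63 by set. The mean log levels were higher in every set. In short-total cells the medians went the other way, 107.9 and 133.7 TPM for Mt2 and 493 and 511 TPM for Mt1. The levels did not follow that of Stmn1. In the left-out cells with Stmn1 above 0 and under 1 TPM the medians exceeded those of both groups, at 164.7 TPM for Mt2 and 651 TPM for Mt1.

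Some differences were much larger in cells numbered to 48 than in the other sets. Actg1, cytoplasmic gamma-actin, had medians of 32.8 TPM in low-Stmn1 cells (7.15 to 232) and 18.7 TPM in Stmn1-zero cells (1.07 to 124). Its difference was 0.64 in all and 1.31, 0.10 and -0.01 by set. Atf3, a stress-induced transcription factor, was detected in 15 of 27 and 25 of 56 cells and differed by 0.73, with 1.31, 0.32 and 0.05 by set. Atf3 was the 1 member past 0.5 among the 25 immediate-early and heat shock genes that passed the filter, whose median was 0.19 over all cells, 0.35 in cells numbered to 48, 0.26 from 49 and -0.04 in short-total cells. Fos differed by 0.31, with 0.77, 0.53 and -0.62 by set.

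Malat1, an abundant nuclear long non-coding RNA, differed by -0.60, a value that rested on 2 cells. The group medians were 371 TPM (0 to 901) and 374 TPM (4.08 to 1147). Malat1 was at 0 in low-Stmn1 cell 48 and at 0.14 TPM in low-Stmn1 cell 41, in which 2983 and 3285 genes were detected, whereas the next lowest low-Stmn1 cell held 192 TPM. Without both cells the difference was 0.03. Without them 50 genes in place of 34 were higher by 0.5, and the median of the immediate-early list was 0.35.

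Among the remaining genes of largest difference, several had 1 direction in every set. They were chosen by the difference over all cells, which contains the 3 sets, so this direction is no independent support. Of the genes past 0.5 over all cells, 28 of 34 higher and 12 of 20 lower ones had 1 direction in all 3 sets. Among all 7120 genes compared there were 1786. Fxyd3, a regulator of the sodium pump, had medians of 4.37 TPM (0 to 18.82) and 2.90 TPM (0 to 19.94) and differed by 0.77, 0.80 and 0.36. Rangrf, a partner of the small GTPase Ran, was detected in 20 of 27 and 25 of 56 cells and differed by 0.49, 0.68 and 1.26. Lsm7, a part of the RNA-binding Lsm ring, was detected in 14 of 27 and 14 of 56 cells and differed by 0.67, 0.87 and 0.32. Fgf21, a hormone of metabolic stress, was lower, with medians of 3.80 TPM (0 to 115) and 7.97 TPM (0 to 65.56) and differences of -0.97, -0.74 and -0.43. Timm23, the pore of the mitochondrial inner membrane translocase, had medians of 7.57 and 9.35 TPM and differences of -0.43, -1.14 and -0.63. Rap1gapos and Hnf1aos1, which lie antisense to other genes, were higher by 0.58 and 0.56. Because strand was not marked, reads from any stretch shared with the partner gene cannot be assigned by strand. The ranges of both groups overlapped for each gene of this paragraph.

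**Figure D5:**
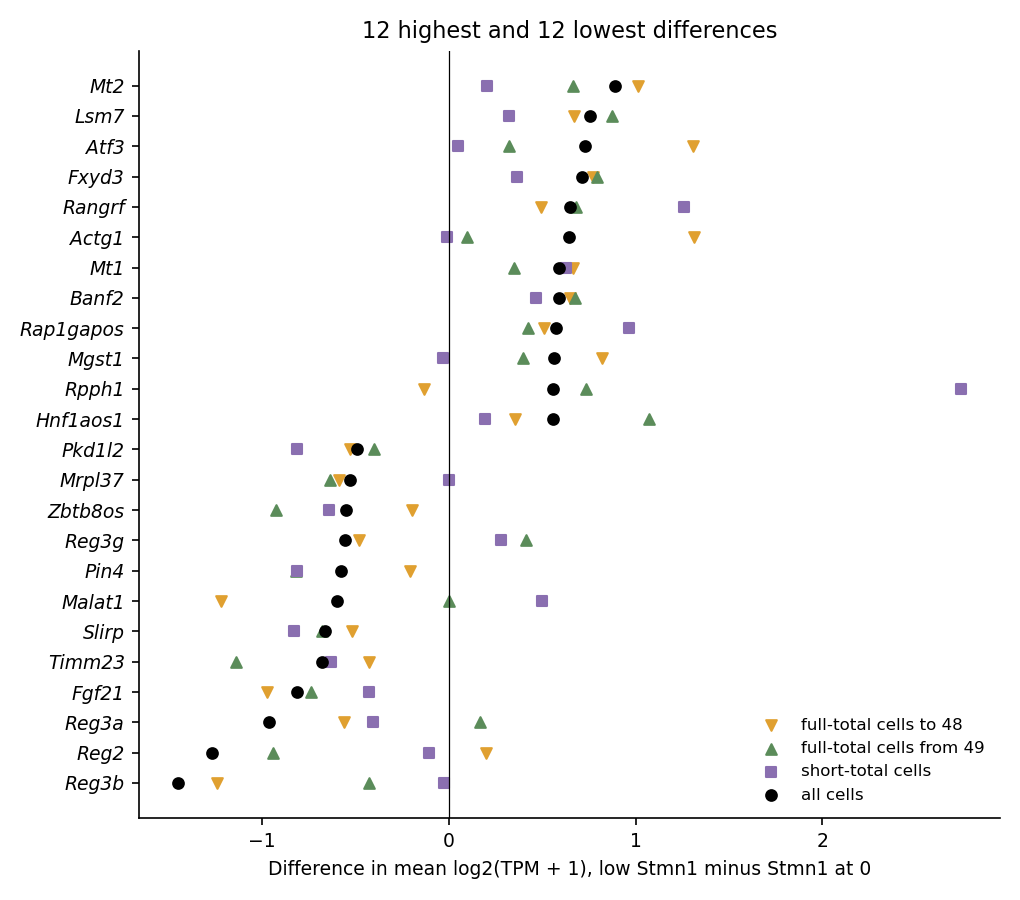
Difference in mean log2(TPM + 1), low-Stmn1 minus Stmn1-zero cells, of the 12 genes with the highest and the 12 with the lowest difference among genes detected in at least 25% of cells, for all cells and for each set. Fxyd3, Rangrf and Slirp lie on 1 side of 0 in every set, whereas Rpph1, Malat1, Reg2, Reg3a and Reg3g, among others, cross it.

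By the share of cells rather than the level, the largest gain was in Itpa, which hydrolyses deaminated purine nucleotides, detected in 22 of 27 low-Stmn1 cells and 22 of 56 Stmn1-zero cells. Trim50, a ubiquitin ligase, followed with 15 and 12 cells. The largest losses were in Nat8, an acetyltransferase, with 8 and 39 cells, and Spns1, a lysosomal transporter, with 10 and 42. Cbx5, the heterochromatin protein HP1 alpha, was detected in 6 and 31 cells. Its difference in level was -0.79 in cells numbered to 48, 0.26 from 49 and -0.03 in short-total cells. Many of these genes have a median near the detection level of 1 TPM, for example 1.63 and 0.79 TPM for Itpa and 0.73 and 1.69 TPM for Nat8.

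Ecd, Anp32b, Atp5s, Cyp2c70 and Hectd3 had been set beside Stmn1 in earlier results over these same cells, so their values are no independent support. Ecd, a protein of pre-mRNA splicing and the cell cycle, had a median of 1.09 TPM in low-Stmn1 cells (0 to 4.61) and 0.56 TPM in Stmn1-zero cells (0 to 1.69) and differed by 0.53, 0.24 and 0.57 by set. Anp32b, a histone chaperone, had medians of 3.43 TPM (0 to 6.12) and 2.31 TPM (0.34 to 7.27) and differed by 0.50, 0.58 and -0.54. Atp5s differed by 0.33 in all and by -0.07 in short-total cells. Hectd3, a ubiquitin ligase, was detected in 1 of 27 and 14 of 56 cells and Cyp2c70 in 2 and 10, and each differed by -0.30. In short-total cells Ecd alone of the 5 kept a difference of the same sign, and those of Cyp2c70 and Hectd3 were 0.17 and 0.0014.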

How the data were processed

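Single acinar cells were sequenced after a modified SMART-seq2 preparation without molecular identifiers. The deposited table holds TPM for 45195 Ensembl rows, rounded to 2 decimals, which the authors made from reads. The mm10 build, RSEM 1.2.21, STAR 2.4.2a and edgeR appear, without roles, per the submitters' processing notes. In all, 24 cells carried spike-in RNA per the labels' protocols, with no word on which. Symbols were matched for 44548 rows. Gene coordinates are from GENCODE M21 (GRCm38).

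Groups followed the Stmn1 bounds. The cells, gene lists and names were chosen with earlier results of these data known. Differences of mean log2(TPM + 1), with a pseudocount of 1, were computed over genes at 1 TPM or more in at least 10% of the 83 cells (9 cells), and 0.5 was the bound for naming a gene higher or lower. A fold on this scale understates the change of genes of low level. Named genes were the 12 highest and 12 lowest differences and the 5 highest and 5 lowest differences in share of cells, among genes detected in 25% of cells and without predicted genes, Rik names and pseudogenes. Of each list, the 2 highest means and 2 largest differences were added, with a set of preset names. Full-total cells summed to 1000000 TPM within 100. No doublet caller was run. Computation used Python 3.11 with pandas and scipy, and the functions were tested on simulated data. Alternatives covered pseudocounts, filters, scalings, bounds of the groups, sets of cells and left-out cells.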

Additional observations from a re-analysis of the deposited data

Results flagged for a closer look

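The following 3 cells were in neither group and held more S-phase genes than any Stmn1-zero cell, whose highest count was 14 of 39. Cell 28, with Stmn1 at 0.95 TPM just under the lower bound, held 18, among them Pcna at 9.48 TPM, Mcm6 at 3.10 TPM, Mcm2 at 2.88 TPM and Tyms at 2.79 TPM, beside 2 mitosis and G2 genes. Cells 31 and 40, with Stmn1 at 107.55 and 108.72 TPM, held 25 and 37 S-phase genes and 25 and 29 of 30 mitosis and G2 genes. In cell 40, 6946 genes were detected in all, among them 9 of 11 endothelial markers (85 TPM in sum), 8 of 13 duct markers (613 TPM) and 3 of 11 stellate and fibroblast markers (15.6 TPM), whereas cells 28 and 31 held none of the endothelial and fibroblast markers at 1 TPM. All 3 cells held the 10 acinar markers. No doublet caller was run, and the part of these markers in the counts was not tested.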

How the results depend on the processing

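The share of genes past the bound followed the scale and the number of cells. Against 0.478% higher and 0.281% lower genes, a pseudocount of 0.1 gave 8.61% and 4.16%, a low-Stmn1 group from 2 TPM 1.59% and 1.04%, and medians in place of means 1.92% and 0.843%. Single sets gave 2.56% and 1.17% (cells to 48), 2.71% and 2.12% (from 49) and 9.09% and 5.56% (short-total). A bound of 1 gave 0.028% and 0.042%, and adding the cells under 1 TPM to the zero group gave 0.281% higher genes. From 2 TPM the low-Stmn1 share was 14.9% in cells to 48 and 7.50% in cells from 49.

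Of the 12 list medians, that of the S-phase list alone stayed on 1 side of 0 under all 18 alternatives (0.03 to 0.30). It did not stay above the median of all genes. In cells to 48 it was 0.028, beside 0.031 for all genes, with 10 of its 19 members above 0. Some results past 0.5 over all cells, for lists and genes under the naming rules, had the opposite sign under an alternative. They were the Reg list in cells from 49 (0.019) and Atf3 from 2 TPM (-0.034). In short-total cells they were Actg1 (-0.010), Mgst1 (-0.032), Malat1 (0.499) and Mrpl37 (0.0015). The number of genes detected per cell also turned, in cells from 49 (-22.5). Rpph1 (-0.133) and Reg2 (0.198) turned in cells to 48, Reg3a (0.167) and Reg3g (0.414) in cells from 49, Reg3g also in short-total cells (0.279) and with sets weighted equally (0.070), and Malat1 without cells 41 and 48 (0.028). Genes past 0.5 outside the naming rules turned too, for example Rps12 (-1.51) in short-total cells and Gm44364 (-0.26) in cells from 49. Of all genes past 0.5 over all cells, 28 of 34 higher and 12 of 20 lower ones kept 1 sign in the 3 sets. Smaller differences also turned, for example the ER and ribosomal lists, Fos, Gmnn and Anp32b in short-total cells. The cause was not tested. Leaving out cell 74, cells 15 and 96, or cells 41 and 48 was chosen after seeing the data. No paired analysis was possible because the cells form 1 group. Without read depth, Stmn1 at 0 cannot be told apart from transcripts below detection.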
